A study of Sus scrofa with 2 samples.

Results

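The miR-183, miR-96 and miR-182 cluster was represented on the array by 1 of the 355 probes, ssc-miR-183. It was found by taking every ssc- probe of the deposited table named miR-96, miR-182 or miR-183, with any letter or arm suffix. This gave 1 probe for miR-183, 0 for miR-96 and 0 for miR-182. The 2 probes of ssc-miR-1839 belong to another miRNA and were not counted. In pigs all of these miRNAs have a gene. In the RefSeq gene table of the Sscrofa11.1 assembly, MIR183, MIR96 and MIR182 follow each other directly, with UBE2H as the neighbouring protein-coding gene on one side and NRF1 on the other. What follows is thus a description of miR-183, and miR-96 and miR-182 were not analysed here.

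The RNA came from the anterior pituitary of female piglets, 20 days old, of Bama minipigs (YB), a small Chinese breed, and Landrace pigs (YC), a large commercial breed. Neither breed was treated, and 3 pigs made up 1 pool per breed, which was hybridized to 1 custom array. The array carried 255 probes with an ssc- name and 100 added probes with the prefix Y-, and bound small RNAs were stained with Cy5. The table gives each probe's signal intensity, on a linear scale. Where a pair of signals is given for a probe, the Bama minipigs come first and the Landrace pigs second, and ratios divide the former by the latter. With 1 pool per breed there was no replicate, so no error between pigs, no test and no p-value can be given, and differences are described by a rule of size (2-fold or more).

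In vertebrates, miR-183, miR-96 and miR-182 are processed from a shared primary transcript. They have related but not identical seeds, the stretch near the 5′ end with which a miRNA pairs with its target mRNAs. The cluster is best known from sensory organs, where it is abundant in photoreceptors, hair cells and olfactory neurons, and changes in the seed of miR-96 cause hearing loss in people and mice. It is also found in epithelial and neuroendocrine cells, and the anterior pituitary is an epithelial endocrine gland.

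The mature sequence of ssc-miR-183 is shown first because it decides which other probes could be grouped with it. The next line gives the probe with the most similar 5′ end. Both are read from the study's probe list, 5′ to 3′. Capitals mark the seed (bases 2 to 8) in ssc-miR-183 and, in ssc-miR-135, bases 2 to 6, which are the same in both.
ssc-miR-183: uAUGGCACugguagaauucacug
ssc-miR-135: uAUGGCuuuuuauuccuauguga

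The seed of ssc-miR-183 was its own on this array. Of the other 354 probes, 0 had the same bases 2 to 8, 0 had the same bases 2 to 7, and 1, ssc-miR-135, had the same bases 2 to 6. The seed was also found at no other position of any probe (0 of 354). Such a seed without a partner was common, since 258 of the 355 probes had bases 2 to 8 that no other probe shared. ssc-miR-135 had signals of 3094 and 1096, so its log2 ratio of 1.50 had the opposite sign to that of ssc-miR-183.

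Beyond the seed, the longest runs of bases in common with ssc-miR-183 are shown to give how close the nearest probes came in sequence. The run was 8 bases long in 1 probe and 7 bases in 3. Capitals mark this run.
Y-71: aGGUAGAAUaagugggaggc
ssc-miR-140*: uaccacagGGUAGAAccacggac
ssc-miR-186: caaAGAAUUCuccuuuugggcuu
ssc-miR-4337: aggguauauaagccUUCACUGg

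None of these 4 probes had the signals of ssc-miR-183. Y-71 had 6152 and 3687 (log2 ratio 0.74). For ssc-miR-186 they were 1899 and 1440 (log2 ratio 0.40), and those of ssc-miR-140* were 445 and 400.1 (log2 ratio 0.15). These 3 were brighter than ssc-miR-183 on both arrays and had a log2 ratio above 0. For ssc-miR-4337 the signals were 0.447 and 1.64, far below those of ssc-miR-183. Its log2 ratio of -1.88 had the same sign as that of ssc-miR-183 but rests on these dim signals. The mature ssc-miR-183 is 23 bases long, against a median of 22 over all probes, with 43.5% G or C (median 50%) and 52.2% A or G (median 50%), so that its composition lay well inside the range of the array, which ran from 18.2% to 95.0% for G or C.

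The Bama minipig array gave ssc-miR-183 a signal of 85.9, and the Landrace array a signal of 204. It was thus 2.38-fold higher in Landrace pigs, a difference of 118.5 signal units and a log2 ratio of -1.25. On the former it lay below the median of its array (114), at 0.753 times that value. On the latter it lay above the median (95.1), at 2.15 times that value. It made up 0.0124% of the summed signal in Bama minipigs and 0.0304% in Landrace pigs.

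In the order of signals, ssc-miR-183 was number 190 of 355 in Bama minipigs and number 151 in Landrace pigs. The share of probes with a lower signal was 46.5% and 57.5%, respectively. Its rank differed by 39 places between the arrays, and 42 of the 355 probes, itself included, differed by as many places or more. Probes differ in binding strength, so the ranks order signals and not molecule numbers. On both arrays the signal was in the middle of the range, far from that of the endocrine miRNA ssc-miR-7, which was the highest on each array with 35031 and 42831. In pools from whole tissue, fewer cells that express a miRNA and less of it per cell cannot be told apart.

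**Figure D1:**
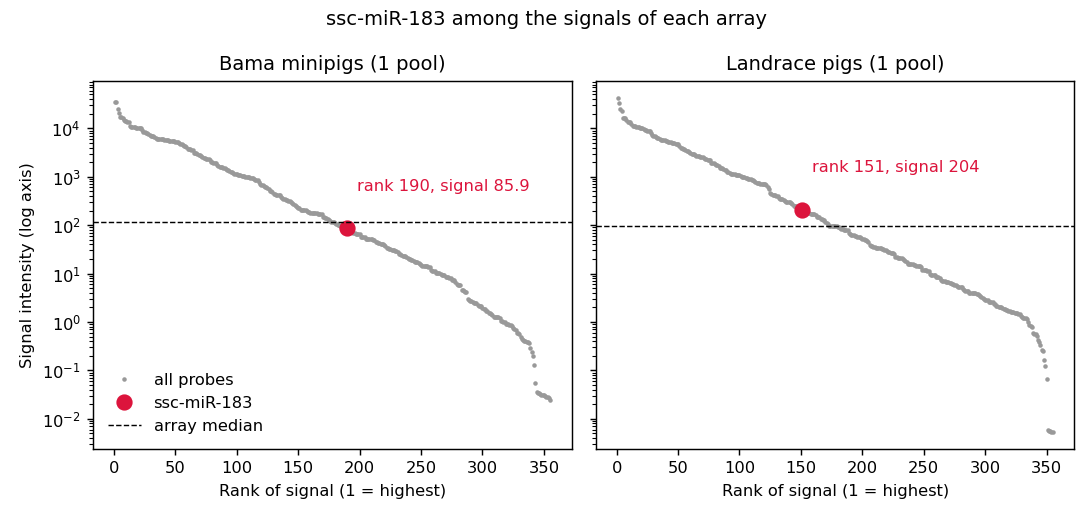
Signal intensity (log axis) of the 355 probes against their rank for Bama minipigs (left) and Landrace pigs (right), with ssc-miR-183 in red and the array median as a dashed line. The probe lies just below the median at rank 190 in Bama minipigs (85.9) and above it at rank 151 in Landrace pigs (204).

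Over all 355 probes, 54 were lower by 2-fold or more in Bama minipigs (15.2%) and 69 were higher by 2-fold or more (19.4%), so a 2-fold ratio by itself was common. Most of it came from dim probes. Of the 54 lower probes, 43 had a signal below 50 on both arrays, 6 had a signal below 50 on 1 array, and 5, ssc-miR-183 among them, had 50 or more on both arrays. By its log2 ratio, ssc-miR-183 was number 47 of 355 from the lowest. The median log2 ratio of all probes was 0.031, with quartiles of -0.53 and 0.67.

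Among the 191 probes with a signal of 50 or more on both arrays, ssc-miR-183 had the second lowest ratio. In this set 5 probes were lower by 2-fold or more (2.62%) and 23 were higher (12.0%), and the median log2 ratio was 0.028 with quartiles of -0.24 and 0.37. In the signal class of ssc-miR-183, the 77 probes with a mean signal above 100 and up to 1000, 4 were lower by 2-fold or more (5.19%), 14 were higher (18.2%), and the quartiles were -0.42 and 0.65. Here ssc-miR-183 was number 3 from the lowest. Its ratio lay below the lower quartile in every one of these sets, and the spread between pigs is unknown.

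**Figure D2:**
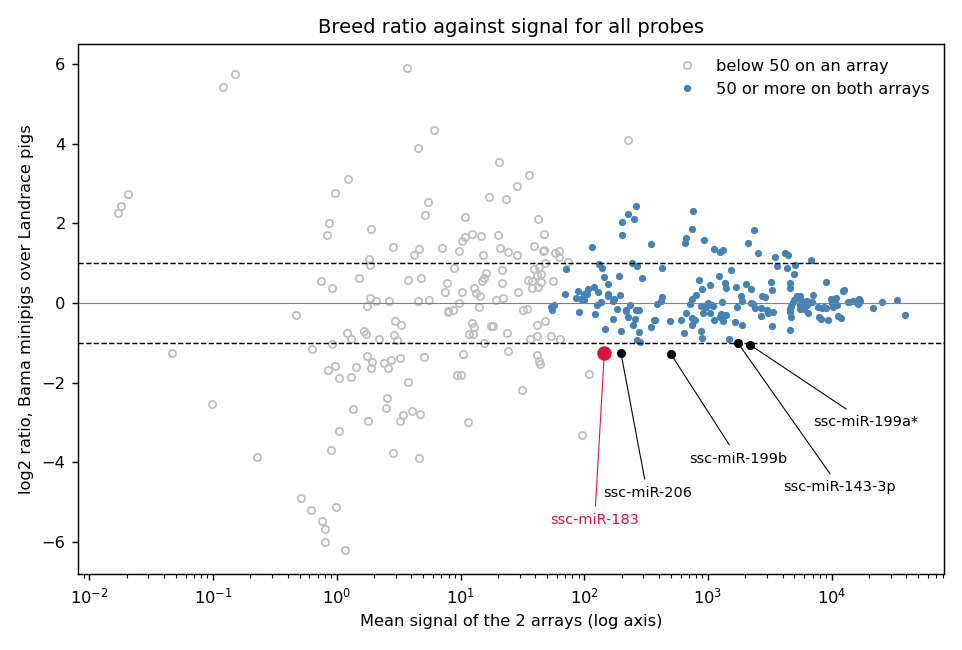
Log2 ratio of Bama minipigs over Landrace pigs against the mean signal of both arrays (log axis) for the 355 probes, with filled points for the 191 probes at 50 or more on both arrays and open points for the rest. Dashed lines mark 2-fold. The ratios of open points spread widely, while ssc-miR-183 (red) is 1 of 5 filled points lower by 2-fold or more, with ssc-miR-206, ssc-miR-199b, ssc-miR-143-3p and ssc-miR-199a* in black.

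The other 4 of these 5 probes belong to miRNAs of muscle and connective tissue. The signal of ssc-miR-199b, of a family abundant in fibroblasts and other mesenchymal cells, was 292 against 712 (log2 ratio -1.28). That of ssc-miR-199a* of the same family was 1417 and 2919 (log2 ratio -1.04). The smooth muscle and fibroblast miRNA ssc-miR-143-3p had 1163 and 2343 (log2 ratio -1.01). The skeletal muscle miRNA ssc-miR-206 had 117 and 278 (log2 ratio -1.25), a ratio that differed from that of ssc-miR-183 only in the third decimal. Of all 5, ssc-miR-183 was the dimmest on each array. The first probe outside the 2-fold limit was ssc-miR-376a*, of the imprinted DLK1-DIO3 locus, with 188 and 372 (log2 ratio -0.98). Other miRNAs of muscle and connective tissue, listed below, did not all go this way. Of 6 striated muscle probes, 3 were lower in Bama minipigs. The 3 higher ones were ssc-miR-1 (log2 ratio 4.08), ssc-miR-133b (2.44) and ssc-miR-133a-3p (2.23). Of 8 connective tissue and vessel probes, 7 were lower, among them ssc-miR-145 with only -0.16, and ssc-miR-214 was higher (0.19). Several of the 8 are of the miR-199 family. A log2 ratio below 0 was itself common, with a median of 0.031 over all probes.

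The 5 probes most like ssc-miR-183 were found by the distance between log2 signals over the 2 arrays. In order of distance they were ssc-miR-361-3p (0.45), ssc-miR-206 (0.63), ssc-miR-22-5p (0.72), ssc-miR-500 (0.79) and ssc-miR-296 (0.83). Every one of these 5 had the higher signal in Landrace pigs, as ssc-miR-183 did, which the choice by nearness of both signals favours. The signals of ssc-miR-361-3p were 114 and 179 (log2 ratio -0.66). For ssc-miR-22-5p they were 109.8 and 133 (log2 ratio -0.27), and for ssc-miR-500 149 and 195 (log2 ratio -0.39). The 2-fold limit was thus passed by ssc-miR-206 and by ssc-miR-296, which had 49.7 and 169.6 (log2 ratio -1.77). Likeness over 2 arrays rests on the level and the ratio alone.

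**Figure D3:**
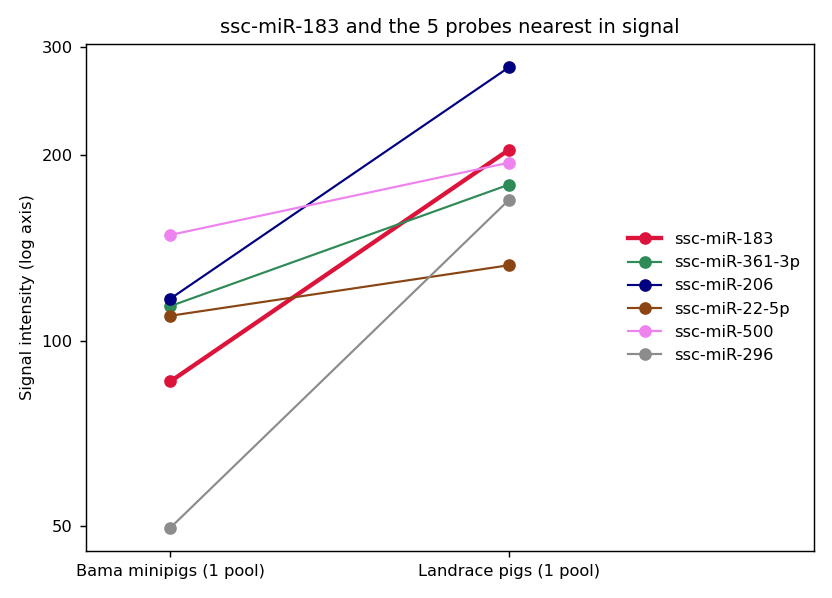
Signal intensity (log axis) on the Bama minipig array and the Landrace array for ssc-miR-183 (thick red line) and the 5 probes nearest to it, a line per probe. All lines rise towards Landrace pigs, which the choice by nearness of both signals favours. Those of ssc-miR-183 and ssc-miR-206 run in parallel.

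The miRNAs listed for epithelial and endocrine cells, in which the cluster is also found, had ratios nearer to 0 than that of ssc-miR-183, as most bright probes did. Of the 5 epithelial miRNAs, all with 50 or more on both arrays, 0 differed by 2-fold or more, where the shares over all such probes were 2.62% lower and 12.0% higher. Their median log2 ratio was -0.036, against 0.028 for all such probes. The miR-200 family members had signals of 2360 and 1685 for Y-75 (miR-141), 7906 and 8688 for Y-76 (miR-200a), 16160 and 16565 for Y-77 (miR-200c), and 2386 and 2984 for ssc-miR-429. ssc-miR-205, of stratified epithelia, was the only epithelial probe close to ssc-miR-183 in signal, with 167 and 147 (log2 ratio 0.19). The log2 ratios of the 5 ran from -0.32 for ssc-miR-429 to 0.49 for Y-75.

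The 3 miRNAs of the endocrine list were among the brightest on the array. Of them, 0 of 3 differed by 2-fold or more, which is near the same shares (2.62% and 12.0%) and is nothing particular to these miRNAs. The log2 ratio was -0.29 for ssc-miR-7, 0.083 for Y-90 (miR-375, of endocrine islet and pituitary cells; 34707 and 32765) and 0.063 for Y-1 (miR-132, a miRNA induced by cAMP signalling; 17403 and 16664). The median of these 3 was 0.063, but it was -0.050 after median scaling and -0.13 after scaling to the 75th percentile.

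The neural and sensory list holds miRNAs of brain and of the retina, where the cluster is abundant. Of its 7 probes, 3 had 50 or more on both arrays. These were ssc-miR-204, of the retinal pigment epithelium, with 4777 and 2504 (log2 ratio 0.93), Y-74 (miR-137) with 3682 and 2931 (log2 ratio 0.33), and ssc-miR-128 with 5384 and 5602 (log2 ratio -0.057). Of the 3, 0 were lower and 0 higher by 2-fold or more, near the shares over all such probes (2.62% and 12.0%). The neuronal ssc-miR-124a had 66.3 and 27.0, and ssc-miR-9-1, ssc-miR-184 and ssc-miR-219 had signals below 15 on both arrays. Over the whole list, 1 of 7 was lower by 2-fold, ssc-miR-219 with 6.13 and 14.8, and 2 were higher, near the shares over all probes (15.2% lower and 19.4% higher). The higher count was 1 after cyclic loess, median scaling or 75th percentile scaling. With the offset of 50 units 0 were lower and 0 higher, where 4 and 23 of all 355 probes were.

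Lists of markers of other cell types that the dissected tissue could hold were read beside the 15.2% of all probes that were lower and the 19.4% that were higher by 2-fold or more. With the offset of 50 units, 4 of the 355 probes were lower and 23 higher by 2-fold or more. In the connective tissue and vessel list, 7 of 8 probes had the lower signal in Bama minipigs, as ssc-miR-183 did. A lower signal was itself common, as the median log2 ratio of all probes with 50 or more on both arrays was 0.028. By 2-fold or more, 3 of 8 were lower (4 after median or 75th percentile scaling, 2 with the offset of 50 units). All 8 had 50 or more on both arrays, where 2.62% of all such probes were lower and 12.0% higher. The probes ssc-miR-199a, ssc-miR-199a-3p, ssc-miR-199a* and ssc-miR-199b are of the same family and are not separate markers. Of these, ssc-miR-199a* and ssc-miR-199b are among the 3 lower by 2-fold. The summed signal of that list was 17824 against 24567 (Landrace), and its median log2 ratio was -0.82, against 0.031 for all probes. In the striated muscle list 2 of 6 were lower and 3 higher by 2-fold or more. One of the lower probes was the dim ssc-miR-208b (0.829 and 4.29). With 50 or more on both arrays 1 of 4 was lower and 2 were higher, beside 2.62% and 12.0% of all such probes. With the offset of 50 units 0 of 6 were lower and 3 higher. The summed signal of the list was 1528 against 660 (Landrace). In the blood cell list 1 of 5 was lower by 2-fold or more, the dim ssc-miR-142-3p (0.489 and 1.46; 0 of 5 after quantile normalization or cyclic loess, where 2 were higher), and the sums were 5497 and 6026, almost all from the red cell miRNA ssc-miR-451 (5286 and 5841). The leukocyte miRNAs ssc-miR-142-3p, ssc-miR-142-5p and ssc-miR-155 had signals below 2 on both arrays. The part of these cell types in the ratio of ssc-miR-183 was not tested.

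**Figure D4:**
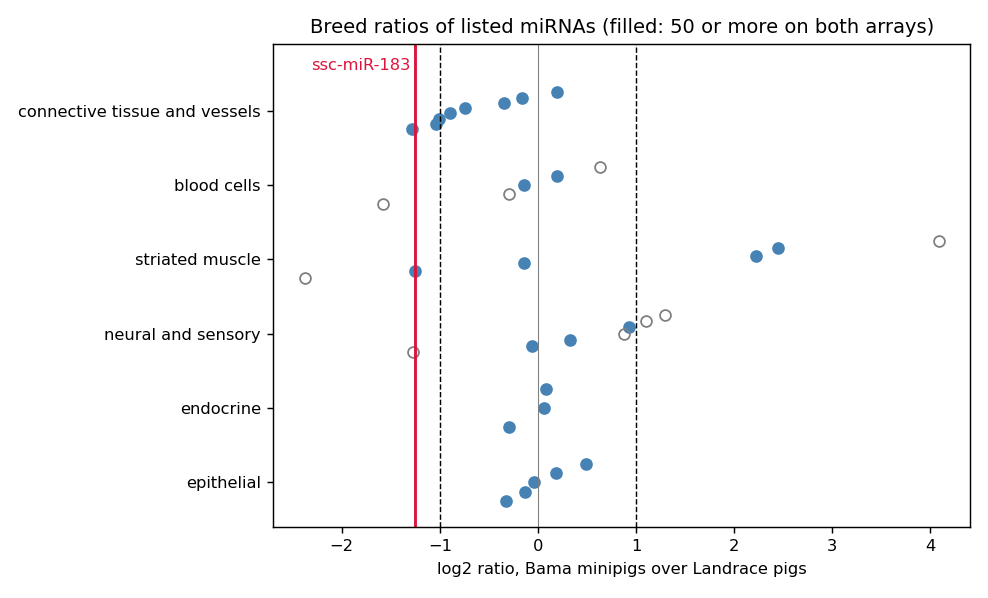
Log2 ratio of Bama minipigs over Landrace pigs for each probe of the 6 lists, filled where the signal was 50 or more on both arrays and open otherwise, with the ratio of ssc-miR-183 as a red line at -1.25 and dashed lines at 2-fold. The epithelial and endocrine probes lie between -0.32 and 0.49, while most connective tissue and vessel probes lie on the same side of 0 as ssc-miR-183.

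The direction for ssc-miR-183 was the same under every scaling tried, but the 2-fold limit was not passed with every offset. An offset added to both signals cannot change the direction. Scaling to the median or the 75th percentile shifts every log2 ratio by the same amount, here -0.11 and -0.19. Shifts of this size could not reverse a log2 ratio of -1.25, so these 2 scalings tell little about the direction. The log2 ratio was -1.36 after median scaling, -1.44 after scaling to the 75th percentile, -1.51 after quantile normalization and -1.50 after cyclic loess. With an offset of 50 units added to both signals it was -0.90. The ratio equals 2-fold when 32.6 units are added to both signals, or when the Bama minipig signal is multiplied by 1.19. Per the paper's methods, background was subtracted before normalization. The deposited table holds no background or spot values, so how much background remains in a signal of 85.9 cannot be told from it.

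**Figure D5:**
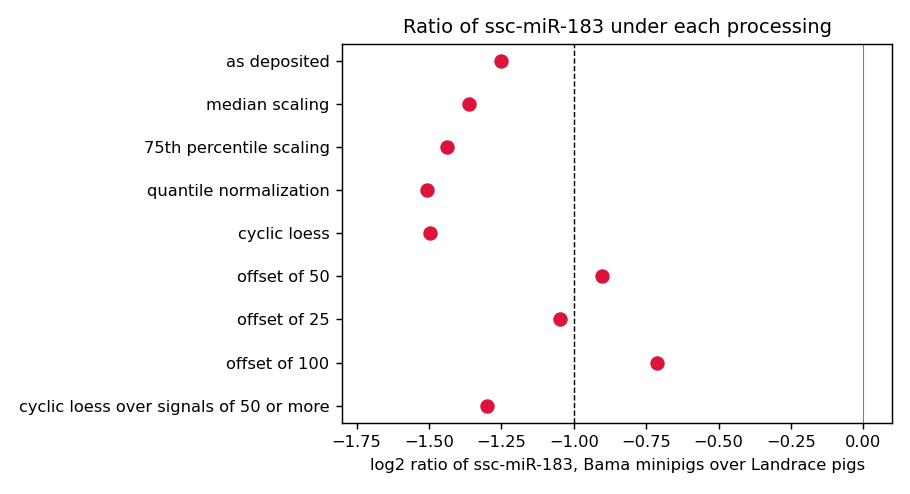
Log2 ratio of ssc-miR-183, Bama minipigs over Landrace pigs, for the deposited values and each alternative, with the 2-fold limit dashed. All points lie below 0, which for the offsets holds by construction. The offsets of 50 and 100 lie inside the limit, at -0.90 and -0.71.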

How the data were processed

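Total RNA came from anterior pituitaries (3 pigs in 1 pool per breed), and small RNAs were tailed, tagged and hybridized to a custom microarray. Per the paper's methods, the authors subtracted the background and normalized with a LOWESS filter; the deposited table holds linear signal intensities above 0 for 355 probes. What was done with spots dimmer than background is not given in the sources used here. The log2 ratio between the breeds was computed from these signals without further scaling, and a rule of 2-fold was applied. The number of arrays, 1 per breed, limits the precision. Breeds were taken from the labels. The mRNA measurements were not analysed here.

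The members, lists and settings were chosen with earlier results of these data known. Probes named are the member, the 5 nearest by distance of log2 signals, those lower by 2-fold with 50 or more on both arrays, those sharing bases with ssc-miR-183 (4 because of ties) and the lists. ssc-miR-376a* was chosen after its value was seen. Names of Y- probes and mature sequences come from the study's probe list, and gene order from RefSeq (Sscrofa11.1). Alternatives were scaling to the median (over probes with 100 or more on both arrays) or 75th percentile, quantile normalization, cyclic loess (limma 3.58.1, R 4.3.3), an offset of 50 and other probe sets. The scalings were also run on simulated data with the same small noise at every signal level and changes only in probes of 100 or more. That run does not show how they act on dimmer probes, where the real ratios spread widely. Python 3.11.15, numpy 2.4.6, pandas 2.3.3 and matplotlib 3.10.9 were used.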

Additional observations from a re-analysis of the deposited data

How the results depend on the processing

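The log2 ratio of ssc-miR-183 was -1.25 as deposited and stayed past 2-fold under all 4 scalings, from -1.51 to -1.36. It no longer passed with an offset of 50 (-0.90) or, chosen after seeing the data, of 100 (-0.71), but did with an offset of 25 (-1.05) and after loess over probes with 50 or more on both arrays (-1.30), both also chosen after seeing the data. An offset shrinks the ratio of dim probes by construction.

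The 54 lower and 69 higher probes became 4 and 23 with an offset of 50, 5 and 23 with 50 or more on both arrays, 4 and 14 with a mean signal above 100 and up to 1000, and 32 and 45 over the ssc- probes alone. The last 3 have fewer probes by construction. Among those past 2-fold, the higher share was 56.1% as deposited, 50.8% after median scaling (63 lower, 65 higher), 48.8% after scaling to the 75th percentile (66 and 63), which turned the majority, 53.0% after quantile normalization, 59.6% after cyclic loess and 85.2% with the offset. Median scaling lowered the median log2 ratio of all probes by 0.11 and scaling to the 75th percentile by 0.19.

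The rank of ssc-miR-183 from the lowest ratio, 47, was 30 after cyclic loess, 7 with the offset, 2 and 3 in the smaller signal sets and 26 among ssc- probes. No paired analysis was possible because each breed has 1 array. Leaving out a replicate was not possible either. How far signals lay above any background left after subtraction could not be judged from the deposited values.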
